A study of Mus musculus with 5 samples.

Results

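The genes described here are *Ryr1*, the skeletal muscle form of the ryanodine receptor, and 9 further calcium handling genes. The 9 move calcium across the membrane of the endoplasmic reticulum (ER), sense how much of it is stored there or let it enter across the plasma membrane. They are the inositol trisphosphate (IP3) receptors *Itpr1*, *Itpr2* and *Itpr3*, the store sensors *Stim1* and *Stim2*, the entry channels *Orai1* and *Orai2*, and the pumps *Atp2a2* and *Atp2a3*. The members were taken by symbol, 10 of the 27726 genes common to the 5 libraries. *Ryr1* was chosen by its measured values in the same libraries, near 0 in fresh cells and higher in culture, so its levels and the contrast of cultured with fresh cells are given as a description.

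In lymphocytes the ER is the main calcium store. Engagement of a surface receptor makes IP3, which opens the IP3 receptors and lets stored calcium into the cytosol. STIM proteins sense the emptied store and open ORAI channels in the plasma membrane, and the SERCA pumps encoded by the *Atp2a* genes refill the store. The sustained rise activates calmodulin and calcineurin, which send NFAT transcription factors to the nucleus and allow cytokine genes to be transcribed. Ryanodine receptors are a second family of ER release channels. RYR1 is best known from skeletal muscle, where it couples excitation to contraction, and it is gated there by the voltage sensor CACNA1S.

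Group 2 innate lymphoid cells (ILC2s) were sorted from lungs of female C57BL/6 WT mice of 4 to 8 weeks as Lin- ST2+ CD127+ Thy1.2+ CD45+ cells. The mice were pooled, 5 in a group, so the animals behind a library are not replicates. Single-cell RNA was counted with the 10x Genomics 3' kit. There was 1 naïve library from mice without a tumour. The 2 ta-non-activated libraries (fresh) came from mice with a subcutaneous TC1 tumour, a mouse lung tumour line, at weeks 2 and 3, and the 2 ta-activated libraries (cultured) came from tumour-bearing mice of the same weeks after 7 days in medium with rhIL-2, rmIL-33 and TSLP at 10 ng/mL each. No naïve cells were cultured and no culture without cytokines was made, so time in culture and the cytokines cannot be told apart. The deposited unique molecular identifier (UMI) totals lay between 9910201 and 71126524 per library, and 1601 to 6389 cells were kept, with median depths between 4396 and 16090 UMIs. All 12 ILC2 markers were detected in each library, with a summed level between 2078 and 9622 CPM (UMIs of a gene per 1000000 UMIs of the library). The fresh week 3 library stood apart: 61.4% of its cells with at least 2000 UMIs carried transcripts of 3 or more of 9 T cell receptor and CD3 genes (T-gated), against 1.49% to 12.7% in the other 4, and its summed T cell markers reached 6746 CPM against 304.9 to 1238 CPM. Values that use it are given with and without T-gated cells where that matters. Leaving those cells out did not make the 2 fresh libraries alike. Among cells outside the T gate thinned to 2000 UMIs, 106 held an *Il5* or *Il13* UMI in fresh week 3 and 471 did not. In fresh week 2 the numbers were 1626 and 156. Over all kept cells *Il5* stood at 48.96 CPM in fresh week 3 and 1224 CPM in fresh week 2. Pairs of libraries shared 1 to 11 cell barcodes.

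The genes lie on 5 chromosomes (GRCm38, GENCODE M21). *Ryr1* (ENSMUSG00000030592) occupies chr7:29003344-29125179 on the minus strand, 121.8 kb with 100 kb of introns. *Itpr1* (ENSMUSG00000030102) lies at chr6:108213096-108551109, *Itpr2* (ENSMUSG00000030287) at chr6:146108299-146502223 and *Itpr3* (ENSMUSG00000042644) at chr17:27057304-27122223. *Stim1* (ENSMUSG00000030987) lies at chr7:102267806-102437319 and *Stim2* (ENSMUSG00000039156) at chr5:53998499-54121057. *Orai1* (ENSMUSG00000049686) lies at chr5:123015074-123030456 and *Orai2* (ENSMUSG00000039747) at chr5:136147459-136170713. *Atp2a2* (ENSMUSG00000029467) lies at chr5:122453513-122502225 and *Atp2a3* (ENSMUSG00000020788) at chr11:72961169-72993044. Annotated models on the opposite strand overlap *Ryr1* and 7 of the other members, and none of them was among the genes counted here.

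Promoter sequences from 250 bases before to 50 bases after the RefSeq start site (GRCm38.p6) were at hand for 8 of the 10 genes. The windows with the fewest and the most CG dinucleotides are shown, with each CG in capitals, since the count of CG set *Ryr1* apart from the other 7. The *Ryr1* window is chr7:29125102-29125401 on the minus strand, and the *Stim2* window is chr5:53998273-53998572 on the plus strand.
Ryr1: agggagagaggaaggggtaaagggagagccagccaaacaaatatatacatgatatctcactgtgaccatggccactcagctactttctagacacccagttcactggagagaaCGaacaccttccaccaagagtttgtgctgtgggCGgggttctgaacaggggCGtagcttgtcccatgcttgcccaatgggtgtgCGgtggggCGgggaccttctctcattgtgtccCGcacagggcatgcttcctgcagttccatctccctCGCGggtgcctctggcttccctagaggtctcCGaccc
Stim2: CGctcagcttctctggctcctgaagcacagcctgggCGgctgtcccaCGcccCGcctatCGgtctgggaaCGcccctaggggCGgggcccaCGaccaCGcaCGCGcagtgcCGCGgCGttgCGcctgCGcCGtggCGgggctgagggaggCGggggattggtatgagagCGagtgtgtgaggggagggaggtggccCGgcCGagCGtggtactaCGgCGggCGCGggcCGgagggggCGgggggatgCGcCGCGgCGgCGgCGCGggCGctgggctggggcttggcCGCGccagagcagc
The *Ryr1* window held 9 CG dinucleotides, and 54.2% of the 32851 mouse promoter windows of the same length held fewer. The other 7 held between 24 (*Orai2*) and 39 (*Stim2*), a number that exceeded 80.0% to 95.6% of all windows. The G and C content of the *Ryr1* window was 56.7%, against 68.0% to 78.7% in the other 7 and a median of 52.7% over all. A total of 7 short motifs was searched on both strands, each counted separately whether or not it overlapped another: the NFAT core, spelled GGAAA, the AP-1 site, spelled TGANTCA, the E-box CANNTG, the STAT site TTCNNNGAA, the GATA site, spelled AGATAA, the first part of the cyclic AMP element, spelled TGACGT, and the TATA box, spelled TATAAA. None of these letters was found in the *Ryr1* window, where 61.3% of all windows held the NFAT core, 72.3% an E-box and 7.81% the AP-1 motif. Among the members the NFAT core was found once, 8 bases before the start of *Orai2*, which also held 4 E-boxes.

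*Ryr1* was nearly silent in the 3 fresh libraries and present in both cultured ones. It gave 3 UMIs (0.0926 CPM, 95% interval 0.0191 to 0.271) in the naïve library, 23 UMIs (0.692 CPM, 0.439 to 1.04) in fresh week 2 and 5 UMIs (0.532 CPM, 0.173 to 1.24) in fresh week 3. In culture it gave 1146 UMIs (19.98 CPM, 18.8 to 21.2) in week 2 and 1828 UMIs (29.6 CPM, 28.2 to 31.0) in week 3. The lowest cultured library was well above the highest fresh one, and the ranges did not overlap, which restates how *Ryr1* was chosen. The ratio of culture to fresh was 28.9 (19.1 to 45.7) in week 2 and 55.6 (23.8 to 171) in week 3, where it rests on 5 fresh UMIs. All 5 of those UMIs lay in T-gated cells, which made up 61.4% of the cells with at least 2000 UMIs. The ratio of T-gated to other cells had a 95% lower limit of 0.274, so it is not told apart from 1. Without T-gated cells the fresh week 3 library held no *Ryr1* UMI in 683 cells, and 3 counts would be 1.31 CPM there. Against that floor *Ryr1* was 22.6-fold higher in culture. This is not a lower limit, since the exact 95% lower limit of the ratio was 18.4. In week 2, where T-gated cells were few, the ratio without them was 28.9 (19.2 to 45.9). Among the 2 cultured libraries, week 3 was 1.48-fold (1.37 to 1.59) above week 2. The intervals are exact Poisson ones and cover counting error only, and in sums over a library fewer cells with a transcript and less RNA per cell cannot be told apart.

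In the test of the 2 cultured against the 2 fresh libraries (edgeR, quasi-likelihood, adjusted over all genes after Benjamini and Hochberg), *Ryr1* had a log2 fold change of 5.16 (SE 0.50) and an adjusted p of 0.243. None of the 12643 genes tested passed 0.05 (0%), 2120 (16.8%) had an unadjusted p under 0.05, and DESeq2 called 1033 of 18230 genes (5.67%). The 18230 are all genes with a UMI, including any that DESeq2 left without an adjusted p, so the 2 shares have unlike bases. *Ryr1* and *Itpr3* were the members among the DESeq2 calls, and 3 members (*Ryr1*, *Itpr3* and *Stim1*) had an unadjusted edgeR p under 0.05. These p-values measure the spread between libraries, of which there were 2 a group. The 2 libraries of a group differ in week, and the fresh pair also in T-gated share (1.49% and 61.4%). The fresh pair differs as well in the share of cells with an *Il5* or *Il13* UMI (90.9% and 7.56%). The spread is therefore not one of replicates alone. Because *Ryr1* was chosen on this contrast, the counts are read as a description. Ranked by the smaller of its log2 ratios in the 2 weeks (1 CPM added), *Ryr1* stood 36th of 9883 genes with at least 5 CPM in a tumour-bearing library. The rank uses the values by which *Ryr1* was chosen, and *Ryr1* reached 5 CPM only in culture, so the rank is a description too.

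**Figure D1:**
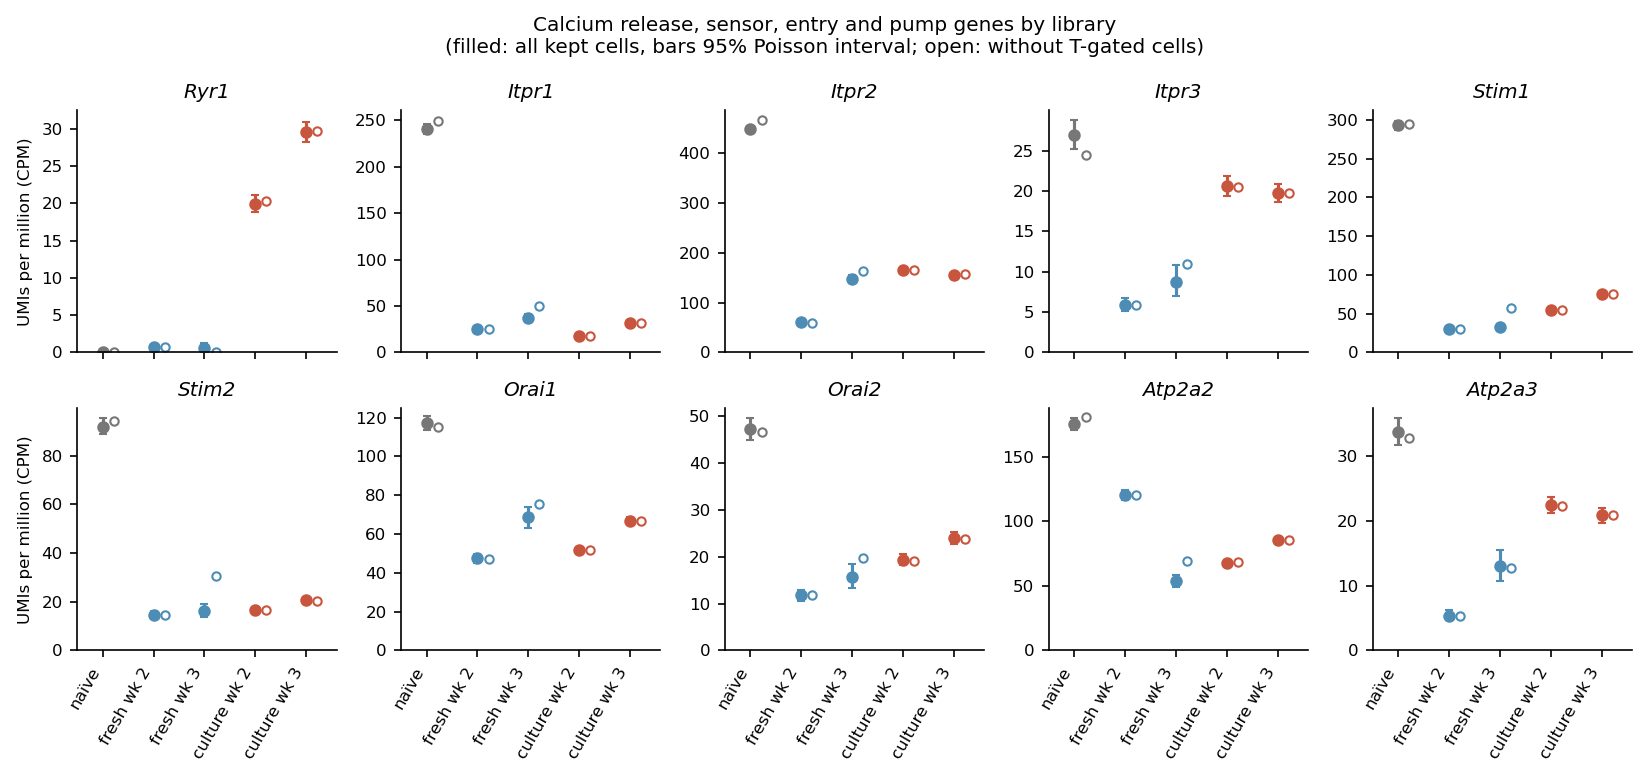
Levels of the 10 genes in CPM (vertical axes start at 0 and differ between panels) in the naïve, fresh week 2 and 3 and cultured week 2 and 3 libraries. Filled points are all kept cells with 95% Poisson intervals, and open points leave out T-gated cells. *Ryr1* sits at or under 0.692 CPM in the 3 fresh libraries and at 19.98 and 29.6 CPM in culture, while the other 9 genes are highest in the naïve library.

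*Ryr2* and *Ryr3*, the heart and the more widely expressed ryanodine receptors, reached at most 0.0309 and 0.803 CPM in any library. Of the 23 partners and regulators of release channels that were measured, 16 stayed under 5 CPM in every tumour-bearing library, among them *Cacna1s*, the junctophilins *Jph1* to *Jph4*, triadin (*Trdn*) and the calsequestrins *Casq1* and *Casq2*. Over all 27726 genes, 9883 reached that level. *Fkbp1a* and its relative *Fkbp1b* both encode proteins that bind and stabilise ryanodine receptors. *Fkbp1a*, the more widely expressed, was among the other 7. It gave 70.04 CPM in the naïve library, 280.2 and 166.2 CPM in fresh weeks 2 and 3 and 306.2 and 134.3 CPM in culture. *Fkbp1b* gave 0.154, 0.150 and 0.106 CPM in the naïve, fresh week 2 and fresh week 3 libraries and 2.35 and 1.55 CPM in culture. *Stac2*, of a family that binds voltage-gated calcium channels, gave 0.124, 0.0301 and 0 CPM in the same fresh order and 2.98 and 2.17 CPM in culture. These 3 genes were picked out after their values had been seen. Of the skeletal muscle markers, the myosins *Myh1*, *Myh2* and *Myh4* were at 0 in all 5 libraries, and the 12 markers together summed to 3.09 to 11.2 CPM in the fresh libraries and 8.02 to 9.82 CPM in culture. Most of that sum was *Mylpf*, at 10.4 CPM in fresh week 3 and 7.04 and 6.31 CPM in culture. *Ckm*, the muscle creatine kinase, gave at most 0.301 CPM in a fresh library and 1.99 and 1.23 CPM in culture.

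Per cell, *Ryr1* was sparse and spread over many cultured cells. With each cell of at least 2000 UMIs thinned to 2000 UMIs, a *Ryr1* UMI was seen in 0 of 6147 naïve cells, which allows a share of up to 0.0488% by 3 counts of the total (exact 95% upper limit 0.05999%), in 2 of 1809 fresh week 2 cells (0.111%, exact 95% interval 0.0134 to 0.399) and in 0 of 1495 fresh week 3 cells, which allows up to 0.201% by 3 counts (exact 95% upper limit 0.246%). In culture it was seen in 127 of 2822 week 2 cells (4.50%, 3.77 to 5.33) and in 189 of 3714 week 3 cells (5.09%, 4.40 to 5.84). The cultured intervals lay above those of the fresh libraries, which restates how *Ryr1* was chosen. They cover the sampling of cells within a library only, since cells are not replicates. The share left out as too shallow was 14 to 242 cells a library. At full depth the cells with a UMI numbered 716 of 2895 (24.7%) and 1152 of 3822 (30.1%) in culture, 19 of 1823 (1.04%) in fresh week 2, 5 of 1601 (0.312%) in fresh week 3 and 2 of 6389 (0.0313%) in the naïve library. The highest count was 12 UMIs in culture week 2 and 7 in week 3, and the top 1% of cells held 13.6% and 10.7% of the *Ryr1* UMIs. For comparison, the top 1% held 26.8% and 20.8% of the *Itpr1* UMIs in the same libraries. T-gated cells of the cultured libraries also held *Ryr1*, in 3 of 138 cells (2.17%, 0.451 to 6.22, median depth 10508 UMIs) in week 2 and 2 of 60 cells (3.33%, 0.406 to 11.5, median depth 8710 UMIs) in week 3. Too few cells of other types were gated in culture to serve as a cell type without the gene, so the part of free RNA in these shares was not tested.

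Among the cultured cells outside the T gate, *Ryr1* was compared between cells in and out of 4 gates on other genes. Cells with an *Il5* or *Il13* UMI, the cytokines that define ILC2 function, held *Ryr1* at 21.7 CPM against 11.5 CPM in the other cells of week 2 (ratio 1.88, 1.51 to 2.37), and at 29.97 against 26.2 CPM in week 3 (1.14, 0.944 to 1.40), where the interval included 1. Among thinned cells, T-gated ones included, the *Il5* or *Il13* gate held 92.13% (86 to 96.16) of week 2 cells with *Ryr1*. It held 80.07% (78.52 to 81.57) of those without. In week 3 the shares were 95.77% (91.83 to 98.16) and 89.19% (88.12 to 90.2), so the intervals were apart in both weeks. Cells with at least 3 of 10 interferon-induced genes were slightly higher in both weeks, by 1.16 (1.01 to 1.32) and 1.17 (1.06 to 1.29). Cells with *Gzmb* or *Gzmc*, which encode granzymes, were higher by 1.14 (0.990 to 1.32) in week 2 and by 1.58 (1.38 to 1.80) in week 3. Cycling cells, with at least 2 of 12 proliferation genes, were lower in both weeks, at 15.9 against 22.8 CPM (0.696, 0.610 to 0.794) and 27.4 against 30.6 CPM (0.894, 0.802 to 0.996). The few fresh week 2 transcripts lay the other way, with 10 UMIs in 138 cycling cells (2.33 CPM) and 13 in 1644 other cells (0.455 CPM), a ratio of 5.12 (2.01 to 12.7). Cells are not replicates, so these ratios carry counting error only and no test. In the same thinned cells, cycling cells made up 14.17% (8.621 to 21.47) of week 2 cells with *Ryr1*. Of those without it they made up 24.04% (22.44 to 25.7). In week 3 the shares were 19.05% (13.71 to 25.38) and 17.73% (16.48 to 19.03), with overlapping intervals. The interferon shares were 36.22% and 42.15% in week 2 and 70.9% and 69.48% in week 3. The granzyme shares were 23.62% and 23.38%, then 10.58% and 10.21%. Both gates had overlapping intervals in both weeks.

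**Figure D2:**
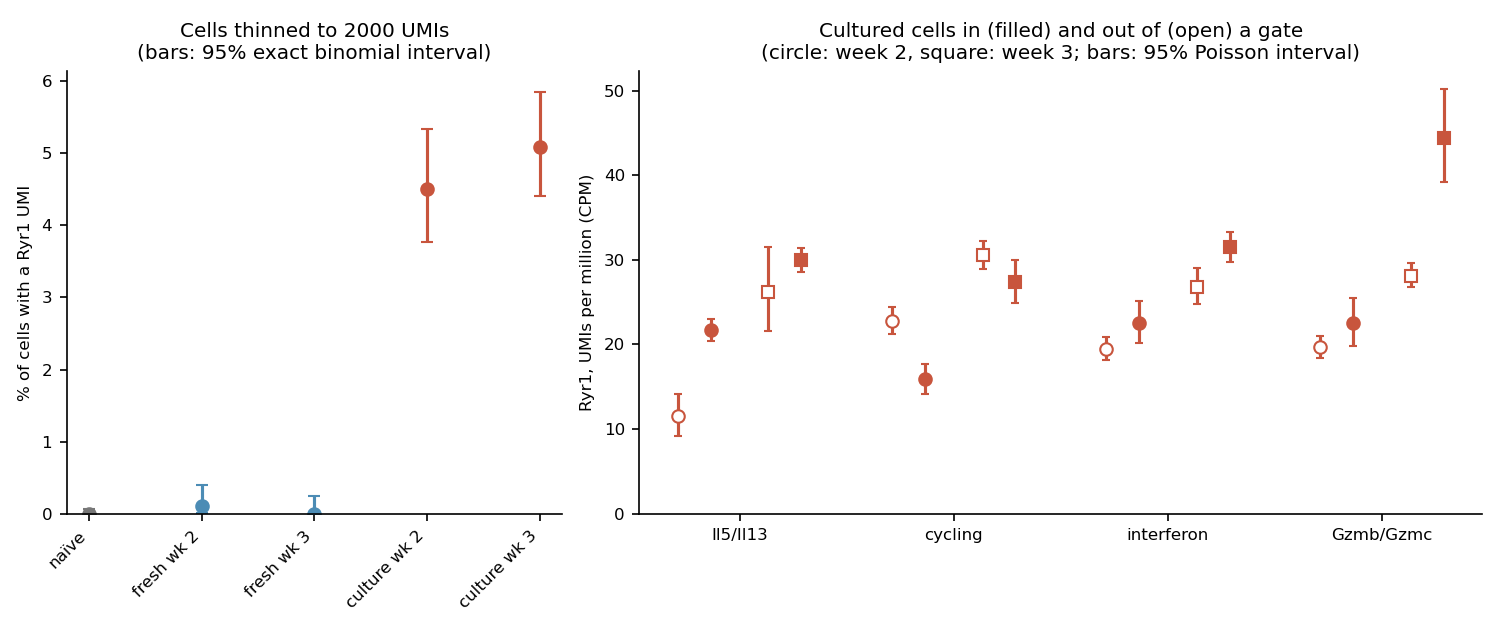
Left, percent of cells with a *Ryr1* UMI after thinning to 2000 UMIs, by library, with exact binomial 95% intervals. Right, *Ryr1* level in CPM in cultured cells in (filled) and out of (open) each gate, circles for week 2 and squares for week 3, with 95% Poisson intervals. The cultured shares are 4.50% and 5.09% against at most 0.111% in fresh cells, and cycling cells lie below the other cells in both weeks.

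The 3 IP3 receptors, the release channels that answer surface receptors, each followed a course of its own. *Itpr2* gave 448.4 CPM in the naïve library, 60.1 and 146.9 CPM in fresh weeks 2 and 3, and 165.5 and 156.3 CPM in culture. The cultured libraries were alike, and the ratio of culture to fresh was 2.75 (2.62 to 2.89) in week 2 and 1.06 (1.01 to 1.13) in week 3, where fresh cells already stood at the cultured level. Without T-gated cells the second ratio was 0.961 (0.867 to 1.07). *Itpr3* gave 27.0 CPM in the naïve library, 5.87 and 8.73 CPM in fresh cells and 20.6 and 19.7 CPM in culture. Its ratio was 3.51 (3.01 to 4.10) in week 2 and 2.26 (1.81 to 2.86) in week 3, and the latter was 1.81 (1.22 to 2.81) without T-gated cells. *Itpr1* went the other way, with 240.7 CPM in the naïve library, 25.5 and 36.9 CPM in fresh cells and 17.2 and 31.8 CPM in culture. Its ratio was 0.677 (0.617 to 0.743) in week 2 and 0.861 (0.768 to 0.968) in week 3 (0.624 without T-gated cells), and the fresh and cultured ranges overlapped.

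*Itpr1* was also the least evenly spread of the members over cultured cells. It was lower in interferon-gated than in other cells, at 9.29 against 20.1 CPM in week 2 (0.463, 0.382 to 0.556) and 23.9 against 43.3 CPM in week 3 (0.552, 0.504 to 0.605). It was lower in granzyme-gated cells by a similar factor, 0.526 (0.429 to 0.641) and 0.538 (0.436 to 0.657). In the same interferon-gated cells *Itpr3* stood at 1.19 (1.04 to 1.35) and 1.22 (1.08 to 1.38) times the level of other cells. In thinned week 2 cells a UMI of *Itpr1* was found in 1 of 127 cells with *Ryr1* (0.787%, 0.0199 to 4.31) and in 66 of 2695 cells without it (2.45%, 1.90 to 3.11). In week 3 the shares were 8 of 189 (4.23%, 1.84 to 8.17) and 166 of 3525 (4.71%, 4.03 to 5.46), so the intervals overlapped in both weeks.

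Of the store sensors, *Stim1* gave 292.9 CPM in the naïve library, 30.5 and 32.9 CPM in fresh cells and 54.4 and 74.98 CPM in culture. Both cultured libraries lay above both fresh ones, with ratios of 1.78 (1.66 to 1.92) and 2.28 (2.03 to 2.57). Without T-gated cells the fresh week 3 level was 57.3 CPM, above culture week 2, and the week 3 ratio was 1.31 (1.102 to 1.57). Within that fresh week 3 library the T-gated cells held *Stim1* at 25.1 CPM against 57.4 CPM in the other cells, a ratio of 0.437 (0.345 to 0.554). In culture *Stim1* was higher in interferon-gated cells, by 1.19 (1.098 to 1.29) in week 2 and 1.24 (1.17 to 1.32) in week 3. Among thinned week 2 cells a *Stim1* UMI was found in 24 of 127 cells with *Ryr1* (18.9%, 12.5 to 26.8) and in 279 of 2695 cells without it (10.4%, 9.23 to 11.6). In week 3 the shares were 34 of 189 (18.0%, 12.8 to 24.2) and 518 of 3525 (14.7%, 13.5 to 15.9), and the intervals overlapped. *Stim1* in week 2 was the only one of the 18 such comparisons of a member with *Ryr1* whose intervals did not overlap. *Stim2*, which responds to smaller losses from the store, gave 92.0 CPM in the naïve library, 14.8 and 16.3 CPM in fresh cells and 16.6 and 20.6 CPM in culture. Its week 3 ratio turned from 1.26 (1.07 to 1.505) to 0.668 (0.525 to 0.863) without T-gated cells, which held 0.376 (0.269 to 0.528) times the *Stim2* level of the others.

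Of the entry channel subunits, *Orai1* was at a like level in fresh and cultured cells. *Orai2* was somewhat higher in culture when T-gated cells were included. *Orai1* gave 117.2 CPM in the naïve library, 47.4 and 68.6 CPM in fresh cells and 51.7 and 66.5 CPM in culture, with ratios of 1.09 (1.03 to 1.16) and 0.970 (0.892 to 1.06). The week 3 libraries were higher than the week 2 libraries in both conditions, by 1.45 (1.32 to 1.59) in fresh cells and 1.29 (1.23 to 1.35) in culture. *Orai2* gave 47.4 CPM in the naïve library, 11.8 and 15.7 CPM in fresh cells and 19.4 and 24.0 CPM in culture. Both cultured libraries were above both fresh ones, by 1.64 (1.46 to 1.85) and 1.53 (1.29 to 1.82), and the second was 1.22 (0.904 to 1.68) without T-gated cells. Without those cells *Orai2* in fresh week 3 stood at 19.7 CPM, above culture week 2 at 19.2 CPM. *Orai1* was lower in cycling cultured cells, by 0.679 (0.625 to 0.737) in week 2 and 0.749 (0.695 to 0.808) in week 3, and *Orai2* by 0.756 (0.661 to 0.864) and 0.828 (0.731 to 0.935).

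The 2 pumps differed from each other. *Atp2a3*, the SERCA3 pump of blood cells, gave 33.8 CPM in the naïve library, 5.39 and 13.0 CPM in fresh cells and 22.4 and 20.9 CPM in culture, with ratios of 4.16 (3.55 to 4.89) and 1.61 (1.33 to 1.95). *Atp2a2*, which encodes the widely expressed SERCA2 pump, gave 175.2 CPM in the naïve library, 120.3 and 53.9 CPM in fresh cells and 67.9 and 85.8 CPM in culture. Its ratio was 0.564 (0.540 to 0.590) in week 2 and 1.59 (1.45 to 1.75) in week 3, and the fresh libraries lay on either side of both cultured ones. *Atp2a3* and *Atp2a2* were both higher in cycling cultured cells, *Atp2a3* by 1.31 (1.17 to 1.47) and 1.28 (1.13 to 1.44) and *Atp2a2* by 1.20 (1.12 to 1.28) and 1.18 (1.11 to 1.25). *Atp2a2* was also higher in cells with *Il5* or *Il13*, by 1.27 (1.15 to 1.41) and 1.43 (1.26 to 1.62).

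By the rule of a 2-fold difference in both weeks (1 CPM added), *Ryr1* and *Itpr3* were the 2 of 10 members higher in culture, where 7.9% of the 9883 genes with at least 5 CPM were. None of the 10 was 2-fold lower in both weeks, where 3.33% of all genes were. With 1 week alone, 4 members were higher in week 2 (16% of all genes) and 3 in week 3 (19.3%), and 0 were lower in week 2 (8.69%) or week 3 (16.4%). Since the contrast was used to choose *Ryr1*, nothing is read from these shares. Without T-gated cells *Ryr1* alone met the rule, where 7.32% of 9721 genes did, and 0 were lower (1.48%). The median log2 ratio of the 10 members was 0.74 in week 2 and 0.61 in week 3, beside 0.13 and 0.03 over all genes. These medians include T-gated cells, and none was taken without them. Without T-gated cells the week 3 log2 ratio was higher for *Ryr1* and *Atp2a3* and lower for each of the other members. In the edgeR test the 9 members other than *Ryr1* had log2 fold changes from -0.44 (*Itpr1*) to 1.39 (*Itpr3*, SE 0.35) and adjusted p-values from 0.248 to 0.941.

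**Figure D3:**
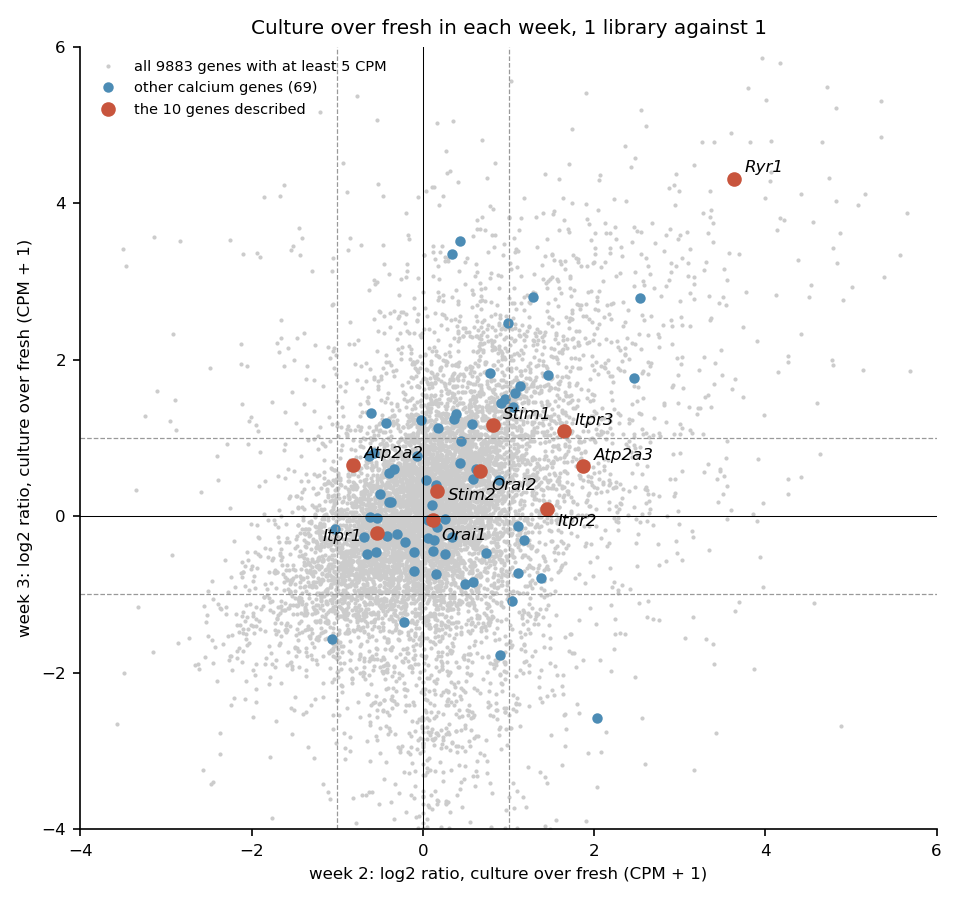
The log2 ratio of culture over fresh (1 CPM added) in week 2 (horizontal) and week 3 (vertical), 1 library against 1. Grey points are the 9883 genes with at least 5 CPM in a tumour-bearing library (157 lie outside the axes), blue points 69 other calcium genes and red points the 10 genes described, with dashed lines at 2-fold. *Ryr1* lies at 3.63 and 4.32, *Itpr3* is the other member past 2-fold in both weeks, and *Atp2a2* lies on opposite sides of 0.

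A list of 118 further calcium genes was examined beside the members, of which 116 were found and 69 reached 5 CPM in a tumour-bearing library. Of these 69, 7 were 2-fold higher in culture in both weeks, 1 was 2-fold lower and 61 were neither, beside the 7.9% and 3.33% of all genes given above. Among the tumour-bearing libraries *Trpm4*, *Cacnb3* and *Plcd1* reached 5 CPM only in culture, so they could not have been called lower. Nothing is read from the 7 against 1. The list's median log2 ratio was 0.26 in week 2 and 0.18 in week 3. *Trpm4*, a calcium-activated cation channel, gave 7.13 CPM in the naïve library, 3.52 and 1.49 CPM in fresh cells and 25.3 and 16.3 CPM in culture, a ratio of 7.19 (5.95 to 8.75) and 10.9 (6.49 to 20.1). Without T-gated cells the week 3 ratio was 2.86 (1.66 to 5.39). *Cacnb3*, the beta subunit of voltage-gated calcium channels found in T cells, gave 0.124 CPM in the naïve library, 0.271 and 0.213 CPM in fresh cells and 6.03 and 3.14 CPM in culture. None of the pore-forming subunits *Cacna1c*, *Cacna1d*, *Cacna1e* and *Cacna1f* reached 5 CPM in a tumour-bearing library. *Plcd1*, a phospholipase C that makes IP3, gave 1.60 and 0.106 CPM in fresh cells and 5.30 and 6.73 CPM in culture, and the week 3 fresh value is a single UMI.

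The calcineurin arm made up 19 of the 69 list genes that reached 5 CPM and held 3 of the 7 higher ones. Over all genes 7.9% were higher, and nothing is read from the 3. *Nfatc2*, one of the calcineurin-dependent transcription factors, gave 52.6 CPM in the naïve library, 14.8 and 11.9 CPM in fresh cells and 42.5 and 44.2 CPM in culture, with ratios of 2.86 and 3.71, the second 1.905 (1.45 to 2.55) without T-gated cells. *Rcan3*, a regulator of calcineurin, gave 7.44, 11.01 and 5.64 CPM in the naïve and fresh week 2 and 3 libraries and 25.5 and 20.1 CPM in culture. *Camk1*, a calmodulin-dependent kinase, gave 4.75, 8.88 and 4.79 CPM in the same order and 19.9 and 16.3 CPM in culture. The remaining 16 genes of this arm that reached 5 CPM, among them the calmodulins and the catalytic subunit genes *Ppp3ca*, *Ppp3cb* and *Ppp3cc*, were not past 2-fold in both weeks. *Sdf4*, a calcium-binding protein of the secretory pathway, stood at 167.4, 172.8 and 119.4 CPM and then at 360.5 and 315.5 CPM in culture. The gene that was lower was *Vdac1*, a channel of the outer mitochondrial membrane, at 222.8 and 315.4 CPM in fresh weeks 2 and 3 and 106.3 and 105.3 CPM in culture. In the naïve library it gave 68.9 CPM, below both cultured libraries. Without T-gated cells *Trpm4*, *Cacnb3*, *Plcd1* and *Rcan3* still met the rule, *Mcub*, a mitochondrial uniporter subunit, came to meet it, and *Nfatc2*, *Camk1*, *Sdf4* and *Vdac1* did not. Of the 6 entry regulators, 5 reached 5 CPM, as did 4 of the 12 pump regulators. Among the 4 remaining members of the 4 families, 1 did. None of these met the rule in either direction, where 7.9% of all genes were higher and 3.33% lower. With so few genes, nothing is read from this.

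Over the 5 libraries, the genes with the level profile nearest to *Ryr1* (Euclidean distance of centred log2(CPM + 1), 10456 genes ranked) were *Aldoc*, *Xaf1*, *Ifi211*, *Ifitm3*, *Zbp1*, *Isg20*, *Lilr4b* and *Sprn*. Their distances lay between 0.840 and 1.09, where the median gene lay at 4.80. *Aldoc*, an aldolase of glycolysis, gave 0.864 CPM in the naïve library, 0.632 and 2.02 CPM in fresh cells and 37.5 and 40.0 CPM in culture. *Ifi211*, of the interferon-inducible PYHIN family, gave 0.123, 0.692 and 0.319 CPM and then 9.83 and 16.8 CPM in culture. *Xaf1*, *Ifitm3*, *Zbp1* and *Isg20* are also known as interferon-induced genes. Of these 4, *Ifitm3* was highest in culture, with 884 and 691.4 CPM after 17.9, 51.8 and 31.8 CPM in the naïve, fresh week 2 and fresh week 3 libraries. Cells with at least 3 of the 10 interferon-induced gate genes made up 0.130% of naïve cells, 0.442% and 1.87% of fresh week 2 and 3 cells, and 41.9% and 69.6% of cultured cells. All 8 were picked by likeness over only 5 libraries, to a gene itself chosen on these values. The share of interferon-induced genes among all genes ranked, or among those higher in culture, was not counted. No link of *Ryr1* to interferon is read from these genes.

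**Figure D4:**
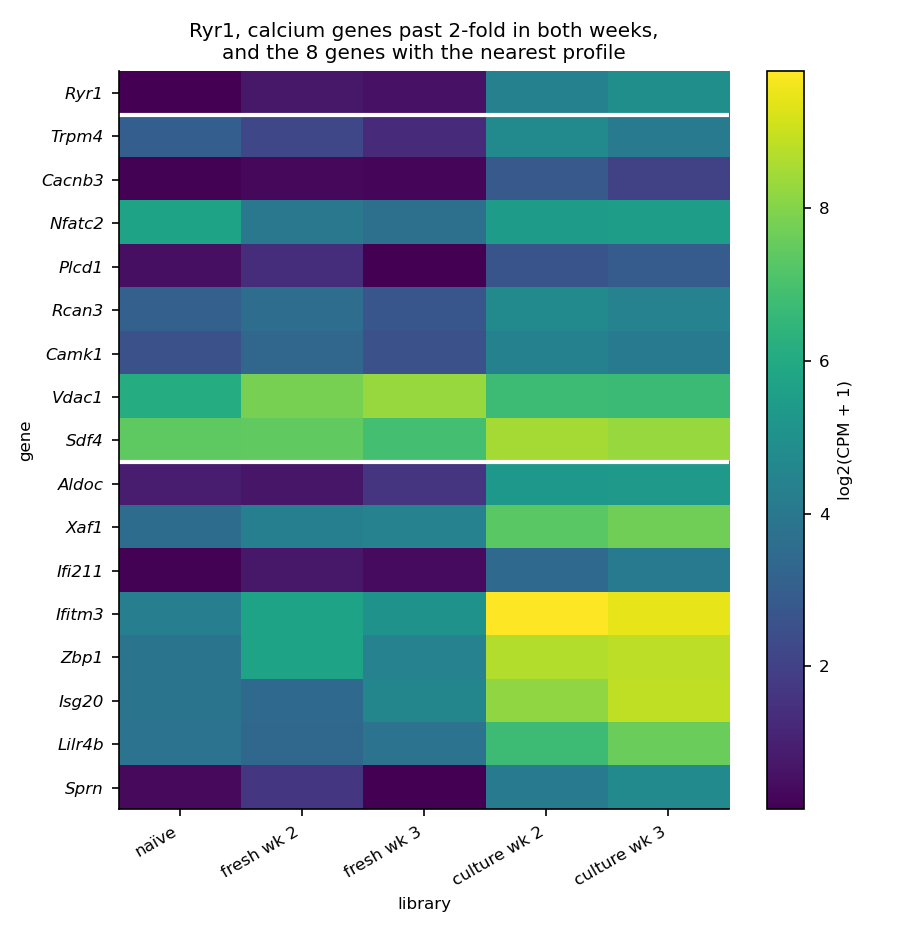
Level as log2(CPM + 1) (colour) of *Ryr1* (top row), of the 8 calcium genes of the list past 2-fold in both weeks (middle block) and of the 8 genes with the profile nearest to *Ryr1* (bottom block), by library. *Vdac1* is the gene of the middle block that is lower in culture, and the bottom block is high in both cultured libraries.

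Apart from *Ryr1*, the members were highest in the naïve library. *Ryr1* did not reach 5 CPM in the 3 fresh libraries and was left out of the 2-fold rule there. On 3 naïve UMIs its level was 0.134 (0.0257 to 0.443) times that of fresh week 2. It was 0.174 (0.0270 to 0.894) times that of fresh week 3, on 5 UMIs that all lay in T-gated cells. Of the other 9, 7 (*Itpr1*, *Itpr2*, *Itpr3*, *Stim1*, *Stim2*, *Orai2* and *Atp2a3*) were at least 2-fold above both fresh tumour libraries, where 22.3% of 10067 genes were, and none was 2-fold below both, where 10.6% were. The same 7 met the rule without T-gated cells, where 20.4% of genes did, and 0 were lower (4.64%). The largest ratios were those of *Stim1*, 9.60 (8.99 to 10.3) over week 2 and 8.91 (7.95 to 10.0) over week 3, and *Itpr1*, 9.45 (8.80 to 10.2) and 6.52 (5.85 to 7.28). Without T-gated cells the ratio over week 3 was 5.15 (4.34 to 6.17) for *Stim1*, and for *Stim2* it was 3.08 (2.43 to 3.97) in place of 5.65 (4.80 to 6.69). *Orai1* was 2.47-fold (2.33 to 2.62) and 1.71-fold (1.57 to 1.86) higher and *Atp2a2* 1.46-fold (1.40 to 1.52) and 3.25-fold (2.97 to 3.57). There was 1 naïve library, so no test was run, both ratios share it, and the fresh libraries are the same ones set against culture above.

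Gene structure moved with this difference. Over 10064 genes, intron length and the log2 ratio of naïve to fresh cells had a Spearman correlation of 0.52 for week 2 and 0.53 for week 3, given as a description since genes of 1 library share its preparation and counting. In the 2516 genes with the longest introns (50.9 kb or more), the median log2 ratio was 1.83 and 1.52 and 57.7% of genes were 2-fold above both fresh libraries. In the 2516 with the shortest introns the medians were -0.55 and -0.62 and 5.53% were. *Itpr2* has 379.1 kb of introns, *Itpr1* 319.7 kb, *Stim1* 159.1 kb, *Stim2* 117.4 kb and *Itpr3* 55.9 kb, which puts all 5 among the former. *Atp2a2* has 42.6 kb, *Atp2a3* 26.6 kb, *Orai2* 17.2 kb and *Orai1* 13.1 kb. With 100 kb of introns *Ryr1* would fall among the former too, but it was under 5 CPM in all 3 fresh libraries and so not among the 10064 genes. At 0.0926 CPM in the naïve library it lay below both fresh tumour libraries, on few UMIs. The naïve matrix header names Cell Ranger 6.0.0 and the other 4 headers name 3.0.2, while the paper's reporting summary gives 6.0.0 without naming libraries. The part of intron length, of software version and of sequencing batch in the naïve levels was not tested. The same correlation was 0.12 and 0.07 for culture over fresh in weeks 2 and 3.

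**Figure D5:**
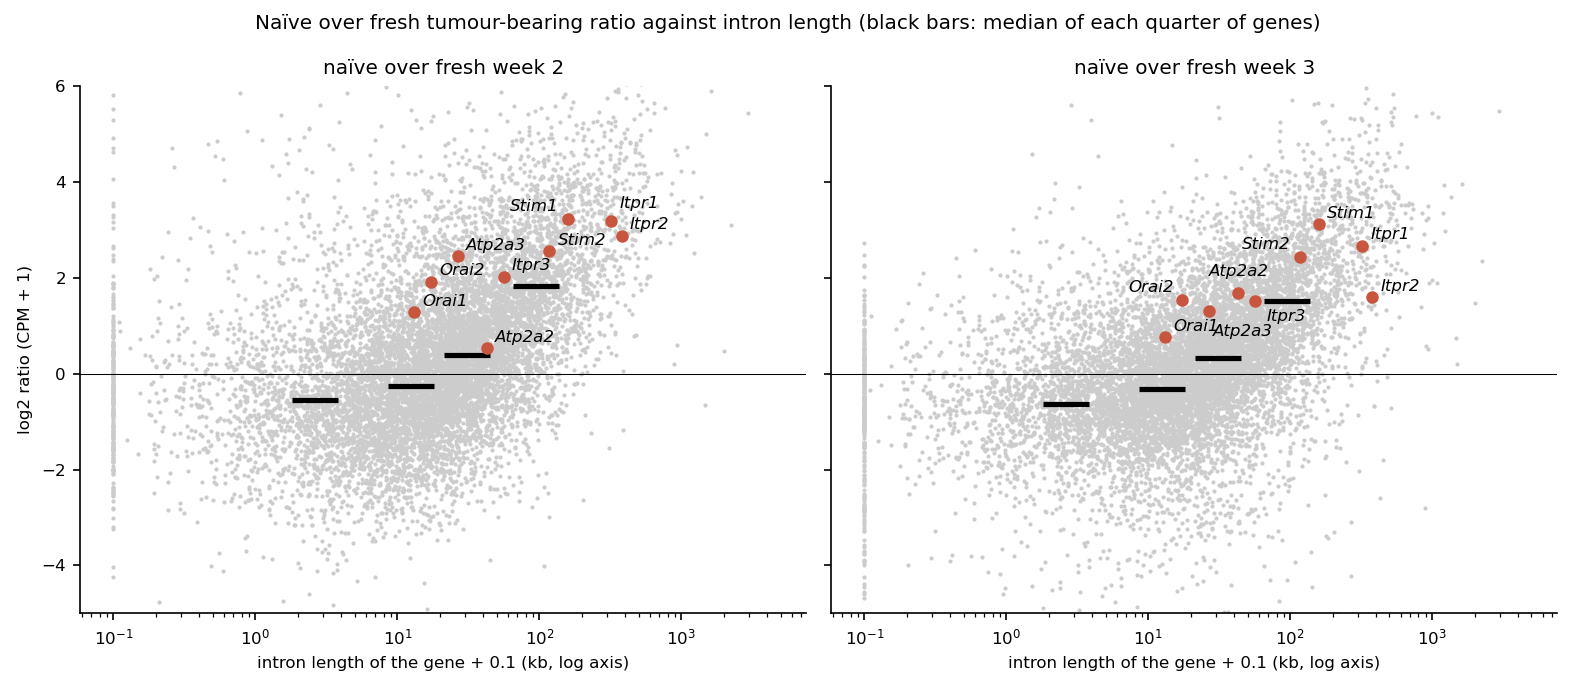
The log2 ratio of the naïve library over fresh week 2 (left) and fresh week 3 (right), 1 CPM added, against the intron length of the gene in kb with 0.1 added (log axis). Grey points are 10064 genes, black bars the medians of 4 equal groups by intron length and red points the 9 members that reached 5 CPM. The medians climb from -0.55 to 1.83 on the left and from -0.62 to 1.52 on the right. *Stim1* and *Itpr1* are the highest members in both panels. *Itpr2*, with the longest introns, lies below *Atp2a2* on the right.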

How the data were processed

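The authors aligned reads with Cell Ranger (the naïve header gives version 6.0.0, the other 4 headers and the submitters' processing notes 3.0.2) to GRCm38 and deposited raw counts of UMIs for each gene in each barcode, not normalized. The paper's reporting summary gives version 6.0.0. The deposited files also hold gene names and barcodes. The annotation and the use of strand or introns in counting are not given in the sources used here. A barcode was kept when it had 200 genes or more and less than 5% of its UMIs from mitochondrial genes, doublets were not called, and counts were summed per library as CPM with exact Poisson 95% intervals. Gates used cells thinned to 2000 UMIs. Clopper-Pearson 95% intervals were given for shares. Cells under 2000 UMIs could not be gated and stay in the sums without T-gated cells. Libraries were compared with edgeR 4.0.16 (filterByExpr, TMM, quasi-likelihood F test, Benjamini-Hochberg, threshold 0.05), with DESeq2 1.42.0 as an alternative. A trial of the edgeR steps on simulated counts used less spread between libraries than these data show. It therefore does not tell how the test performs at the spread seen here. Ratios within a week have no test. Members, lists and gates were chosen with earlier results of these data known. Named genes were the 10 members, list genes past 2-fold in both weeks (up to 12, by the smaller ratio) and the 8 genes nearest to *Ryr1*, and other genes were picked after their values were seen. Of 27726 gene identifiers, 27639 were in GENCODE M21. R 4.3.3, Python 3.11.15, NumPy 2.4.6, SciPy 1.17.1, pandas 2.3.3 and matplotlib 3.10.9 were used. Alternatives were TMM-scaled CPM, 0.1 CPM added, no minimum level, every deposited barcode, 10% as the mitochondrial limit, T-gated cells left out, 1.5-fold, each week alone, thinning to 1000 UMIs and no thinning. For edgeR they were DESeq2, a block for the week, no filter, all 5 libraries in 1 fit, and each tumour library left out.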

Additional observations from a re-analysis of the deposited data

Results flagged for a closer look

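*Atp2a2* moved in opposite directions in the 2 weeks. Its ratio of culture to fresh was 0.564 in week 2 and 1.59 in week 3, and each counting interval left 1 on one side. The difference between weeks was not tested, with 1 library in each condition and week. Without T-gated cells the ratios were 0.568 and 1.24.

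By summed level, *Ryr1* in cycling against other cells outside the T gate also went opposite ways in fresh and cultured cells. The ratio was 5.12 in fresh week 2, on 23 UMIs in all, and 0.696 and 0.894 in cultured weeks 2 and 3. Fresh week 3 had no *Ryr1* UMI outside the T gate, and the difference between fresh and cultured cells was not tested. In thinned cultured cells, T-gated ones included, cycling cells made up 19.05% of week 3 cells with *Ryr1* and 17.73% of those without. In week 2 the shares were 14.17% and 24.04%.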

How the results depend on the processing

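No gene was called under edgeR with a replicate block for the week (0 calls), with no filter, with all 5 libraries in 1 fit, with all deposited barcodes, at a mitochondrial limit of 10% or without T-gated cells. DESeq2 called 1033 genes, and leaving out 1 tumour library gave between 0 and 1646 calls, with 1646 without fresh week 2 and 513 without fresh week 3, each including *Ryr1*, and 0 without either cultured library. A lone library of a group was then assumed to vary like the other group. The week deviations of fresh and cultured libraries correlated at -0.06 over 12643 genes, and the labels do not say that a week pairs animals, so the pairing by week shares only a number. Members 2-fold higher in culture were 2, and 1 without T-gated cells, 4 at 1.5-fold, and between 3 and 4 with 1 week alone. List genes higher were 7, and 12 at 1.5-fold and between 14 and 20 with 1 week alone, and list genes lower were 1, and 0 without T-gated cells and between 2 and 5 with 1 week alone. The *Ryr1* level of fresh week 3 was 0 without T-gated cells, that of culture week 2 was 21.2 CPM with TMM scaling, and that of culture week 3 was 31.4 CPM over all barcodes and 31.2 CPM at the 10% limit. Its share of cells without thinning was 1.04% and 0.312% in fresh weeks 2 and 3 and 24.7% and 30.1% in culture, and thinned to 1000 UMIs it was 2.38% and 2.70% in culture. The other 83 alternative values moved by less than their counting interval, or by less than 1.5 times for a count. Depth limits *Ryr1* in fresh week 3 most, where 3 counts are 0.319 CPM.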
